A study of Mus musculus with 9 samples.

Results

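Collagen-secreting bone cells move procollagen out of the endoplasmic reticulum (ER) through COPII, the coat that buds transport vesicles from ER exit sites, and 9 genes of this route were described in osteosarcoma (OS) tumors of genetically engineered mouse models (GEMMs). The genes are found by symbol among the 55367 genes of the count table, and the set was drawn up with earlier results of these data known, as Creb3l transcription factors and the COPII coat, cargo receptor and retrieval genes around them. All 9 passed the filter on low counts that left 15365 genes for testing. RNA-Seq had been run on whole resected tumors. In the p53-driven group (n = 4) the labelled genotype was Col2.3-Cre/TrpP53fl/+, and in the Myc-knockin group (n = 5) it combined Cre-Lox-Stop-Lox;(LSL)-c-MycT58A with p53fl/+. Both groups therefore carried 1 floxed Trp53 allele and a Cre under Col2.3, a collagen promoter active in osteoblasts, and differed by a Cre-activated Myc transgene that encodes a stabilized MYC. Ages and the assignment of tumors to separate animals were not stated in the labels, so p-values measure the spread between these tumors. The authors reported a shorter median time to sacrifice for the Myc-knockin model than for the p53 model. Ages may therefore differ between the groups, and age and genotype cannot be told apart here.

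The vesicle coat forms when the small GTPase Sar1 binds the ER membrane, recruits the inner coat of Sec23 and Sec24 and then the outer cage of Sec13 and Sec31. Procollagen is longer than an ordinary COPII vesicle and depends on the receptor TANGO1, the product of Mia3, to enter the carrier. Creb3l1 and Creb3l2 encode membrane-bound factors (OASIS and BBF2H7) that are cut in the Golgi and then switch on secretory genes in osteoblasts and chondrocytes. Xbp1 encodes a related factor of the unfolded protein response, which is activated by splicing of its mRNA.

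Total counts ranged from 2716322 to 17073285 per tumor. Levels are given as CPM, counts scaled to the library size after TMM normalization. In 4 libraries a large share of counts fell in satellite-like genes (44.3% in F187, 67.9% in M351, 23.2% in M408 and 81.0% in M9, and at most 0.0242% in the other tumors), and M624 and M664 stood apart by the near absence of the non-coding RNA Rn7sk (5.33 and 9.32 CPM against at least 8858 elsewhere). The results below were therefore also computed without each of these sets. Every Myc-knockin tumor belongs to one or the other set, and of the p53-driven tumors only F187 does. Library set and genotype therefore cannot be fully told apart. Myc, the check of the labels, lay between 144 and 1045 CPM in the Myc-knockin tumors and between 43.5 and 67.1 CPM in the p53-driven tumors. All 12 osteoblast markers examined were detected. Of the 809 genes called over the whole table, 57.0% were lower in Myc-knockin tumors, a share that was 35.5% under upper-quartile normalization.

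Promoter windows of 300 bases (250 before and 50 after the start site, RefSeq, GRCm38.p6) were present for 8 of the 9 genes, all but Creb3l1. These were searched on both strands for letters that CREB3-family factors, XBP1 and MYC are known to bind. TGACGTG, the core of the unfolded protein response element, occurred in 4 of the 8 (Mia3, Sec24d, Sec23a and Kdelr3), against 2.01% of all 32851 windows, 3.15% of the tested genes that had a window and 7 of 87 other genes of the pathway. The stretches that hold it are shown. Of these 4 genes, Sec24d and Mia3 are called in the comparison below, and Sec23a and Kdelr3 are not. Each line reads 5′ to 3′ along the gene's strand, and capitals mark the motif, which in Kdelr3 lies on the opposite strand.
Mia3, chr1:183369633-183369662, minus strand: tgagcccttgcTGACGTGtcactcgcagca
Sec24d, chr3:123267459-123267488, plus strand: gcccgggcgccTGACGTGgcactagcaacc
Sec23a, chr12:59011993-59012022, minus strand: ctcctccccttTGACGTGgcagaggcggca
Kdelr3, chr15:79516368-79516397, plus strand: ggccgccccgcCACGTCAccgcgcggccaa

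The first base of the motif lay at -86 in Mia3, -26 in Sec24d, +7 in Sec23a and -29 in Kdelr3, counted from the start site with -1 as the last base before it. The E-box CACGTG, the letters bound by MYC and MAX, occurred in Sar1a alone among the 8, at -7. It was found in 7.15% of all windows, 11.5% of the tested genes that had a window and 8 of 87 other pathway genes. The Sar1a stretch is shown for comparison with the TGACGTG genes.
Sar1a, chr10:61680266-61680295, plus strand: gagggggcggggCACGTGcgtgcccggaag

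The cyclic AMP response element TGACGTCA (1.79% of windows) and the ER stress response element (CCAAT followed after 9 bases by CCACG, 0.119% of windows) occurred in none of the 8, although the latter was found in 6 of the 87 other pathway genes, among them Hspa5, Hsp90b1 and Pdia6. The shorter ACGT, which lies inside the 3 ungapped motifs above, occurred in all 8, in 30.9% of windows, in 43.9% of the tested genes that had a window and in 52 of the 87 other pathway genes. These matches are descriptions of letters and not of binding.

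The comparison of the genotypes asked how tumors with the Myc transgene differ from p53-driven tumors in this export route. Sec24d and Mia3, the cargo-selecting coat subunit and the procollagen receptor, fell 3.29-fold and 3.15-fold in Myc-knockin tumors. The other 7 genes had lower means in Myc-knockin tumors and did not pass the test. A gene was called where the quasi-likelihood test of edgeR gave an adjusted p (Benjamini-Hochberg, all tested genes) below 0.05 and the fold change exceeded 1.5. By this rule 2 of the 9 genes were lower and 0 were higher, where 3.00% of all tested genes were called lower and 2.26% higher. At an unadjusted p below 0.05, 7 of the 9 were lower (11.8% of all tested genes) and 0 higher, and neither DESeq2 nor limma-voom called any of them higher. All 9 log2 fold changes were negative, with a median of -0.99, where 43.8% of all tested genes were negative and their median was 0.14. In 5 of the 9 (Sec24d, Mia3, Creb3l2, Sec31a and Sar1a) the groups did not overlap, Myc-knockin lower, which held for 7.54% of all tested genes. In whole tumors, fewer cells of a type and less RNA per cell cannot be told apart.

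**Figure D1:**
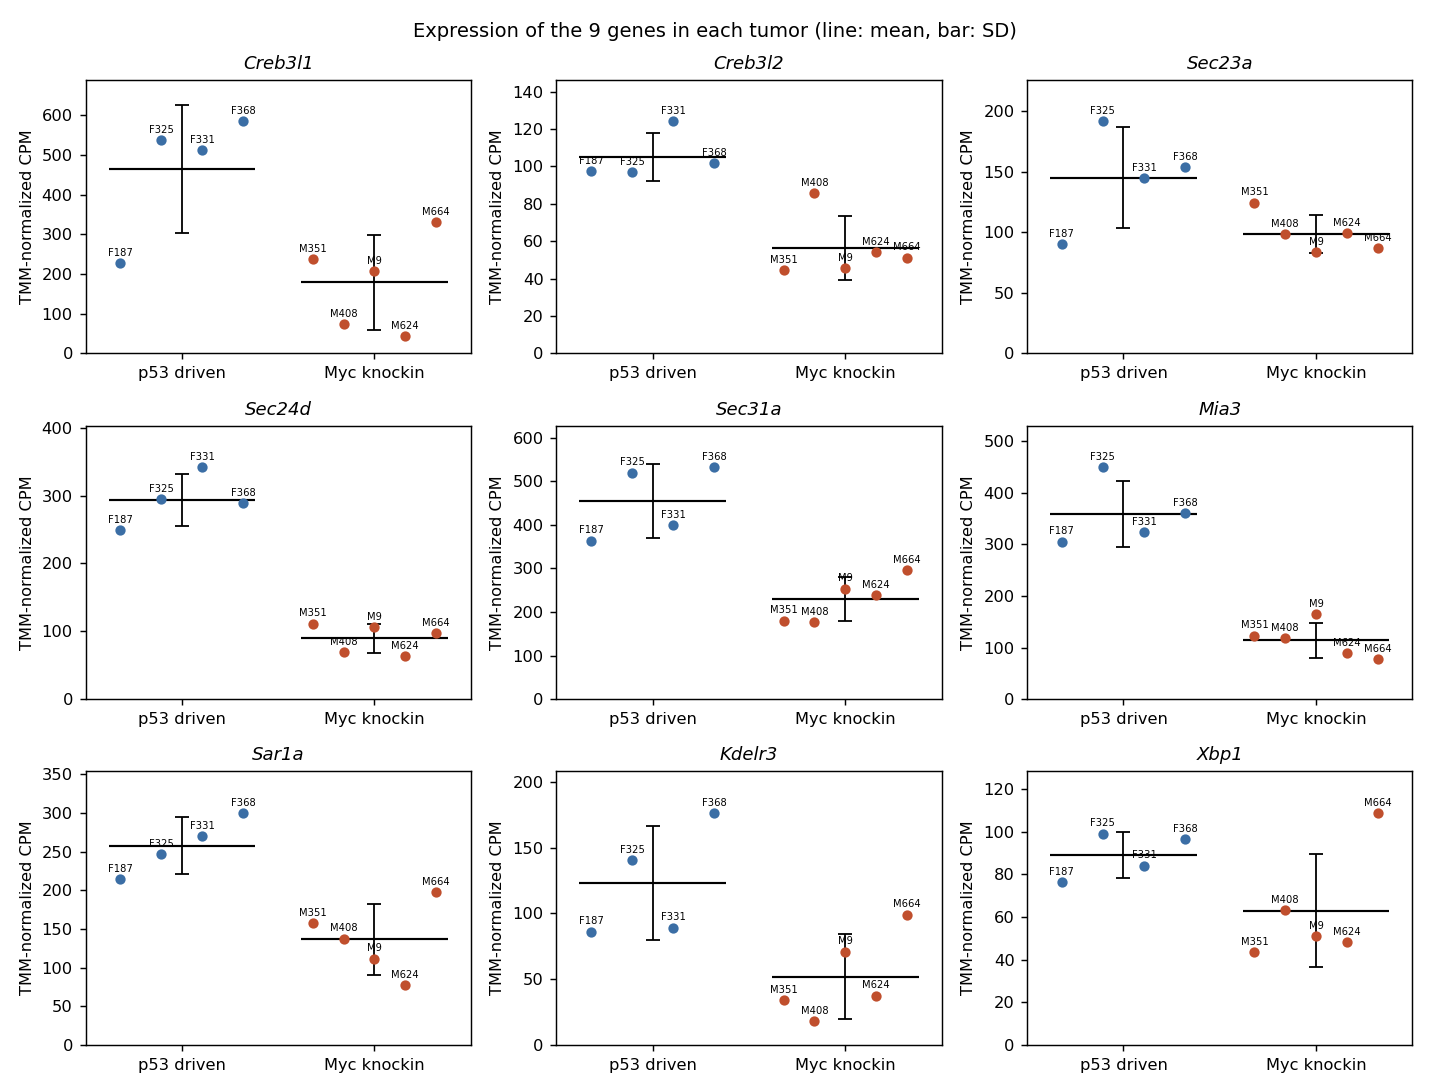
TMM-normalized CPM of the 9 genes (y axis, from 0) in each p53-driven (blue) and Myc-knockin (red) tumor, with the mean as a line and the SD as a bar. The groups are separate for Creb3l2, Sec24d, Sec31a, Mia3 and Sar1a and overlap for Creb3l1, Sec23a, Kdelr3 and Xbp1.

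Among the factors, Creb3l1 (chr2:91982328-92024502) was the gene with the widest spread. Its level was 228, 537, 513 and 585 CPM in F187, F325, F331 and F368, the order kept below for p53-driven tumors. In the Myc-knockin group it was 238 CPM in M351, 73.6 in M408, 207 in M9, 43.9 in M624 and 331.1 in M664, also the order kept below. The groups overlapped through F187, which lay below M351 and M664, and the Myc-knockin tumors differed among themselves by 7.54-fold. The means were 179 ± 119 (SD, n = 5) and 466 ± 161 (SD, n = 4) CPM, and the log2 fold change of -1.38 (SE 0.56, 95% interval -2.60 to -0.16) did not pass edgeR's test (adjusted p = 0.141).

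Creb3l2 (chr6:37327255-37442146), its close relative best known from cartilage, was separated between the groups. The p53-driven tumors held 97.6, 96.9, 124 and 102 CPM. In the Myc-knockin tumors it was 44.3 CPM in M351, 85.9 in M408, 45.4 in M9, 54.3 in M624 and 51.3 in M664. M408 stood above its group yet below every p53-driven tumor, and the group means were 56.2 ± 17.1 and 105 ± 12.8 CPM. The log2 fold change was -0.90 (SE 0.26, 95% interval -1.48 to -0.32) and missed edgeR's threshold (adjusted p = 0.0674). Without M408 it was called (log2 fold change -1.07, adjusted p = 0.0409), and so it was without the 4 libraries with satellite reads (-1.01, adjusted p = 0.0364). In M9 up to 15.7% of its counts could be background reads, as judged from the coverage of chemosensory genes that bone does not use, against at most 6.24% for the other 8 genes in any tumor.

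Xbp1 (chr11:5520659-5525893) was the member with the least difference. It measured 76.2, 99.2, 84.2 and 96.8 CPM in the p53-driven tumors and 43.7, 63.2, 51.0, 48.2 and 109 CPM in the Myc-knockin tumors. M664 exceeded every p53-driven tumor while the other 4 Myc-knockin tumors lay below all of them. The log2 fold change was -0.49 (SE 0.30, 95% interval -1.16 to 0.17, edgeR adjusted p = 0.322). Gene counts do not distinguish spliced from unspliced Xbp1 mRNA.

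In the coat, Sec24d (chr3:123267455-123365641), the Sec24 paralog whose loss impairs collagen export and bone, fell in Myc-knockin tumors. The p53-driven tumors held 249, 295, 342 and 289 CPM. The Myc-knockin tumors held 111 CPM in M351, 69.8 in M408, 106 in M9, 63.1 in M624 and 97.8 in M664. The highest Myc-knockin tumor was thus below the lowest p53-driven tumor by more than the whole range of the Myc-knockin group. The fold was 3.29 (95% interval 2.16 to 5.00) lower, the log2 fold change -1.72 (SE 0.28), and Sec24d ranked 48 of 15365 by p (edgeR adjusted p = 0.0188). The exact two-sided permutation test over the 9 tumors gave p = 0.0159, the smallest that 4 against 5 tumors allows.

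The GTPase gene Sar1a (chr10:61680299-61693297), which starts coat assembly, held 214, 247, 270 and 300 CPM in the p53-driven tumors. Its Myc-knockin values were 158, 137, 112, 77.7 and 198 CPM. The groups were separate, with M664 close under F187. The log2 fold change was -0.92 (SE 0.31, 95% interval -1.60 to -0.24), and edgeR's adjusted p was 0.0924.

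Sec23a (chr12:58958383-59012017), the inner-coat partner of Sec24 and the GTPase activator of Sar1, overlapped between the groups. It measured 90.1, 191, 145 and 153 CPM in the p53-driven tumors and 124, 98.7, 83.7, 99.3 and 87.0 CPM in the Myc-knockin tumors. F187 lay within the Myc-knockin range and the other 3 p53-driven tumors above it. The log2 fold change was -0.56 (SE 0.27, 95% interval -1.16 to 0.04, edgeR adjusted p = 0.216). Its exons share 431 bases with the antisense gene Gm17529, which had 93 counts over all tumors, and the strand setting of the counting is not given in the sources used here.

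Sec31a (chr5:100361649-100416234), the outer-cage subunit, held 364, 520, 399 and 532 CPM in the p53-driven tumors. The Myc-knockin tumors held 180, 177, 253, 239 and 296 CPM. No Myc-knockin tumor reached the lowest p53-driven tumor. The means were 229 ± 50.8 and 454 ± 84.8 CPM, and the log2 fold change was -0.99 (SE 0.29, 95% interval -1.63 to -0.34, edgeR adjusted p = 0.0692).

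Mia3 (chr1:183326725-183369553), which encodes the TANGO1 receptor that joins procollagen to the coat, fell in Myc-knockin tumors. It measured 306, 450, 324 and 360 CPM in the p53-driven tumors. The Myc-knockin values were 123 CPM in M351, 118 in M408, 165 in M9, 88.9 in M624 and 77.7 in M664. Every Myc-knockin tumor lay far below the lowest p53-driven one. The fold was 3.15 (95% interval 1.99 to 4.99) lower, with a log2 fold change of -1.66 (SE 0.30) and an edgeR adjusted p of 0.0223. The exact permutation p was again 0.0159, as it also was for Creb3l2, Sec31a and Sar1a, which edgeR did not call.

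Both calls depended on the p53-driven libraries kept. Without F325, F331 or F368 the adjusted p by edgeR lay between 0.0640 and 0.0667 for Sec24d and between 0.0663 and 0.0771 for Mia3, with log2 fold changes of -1.76 to -1.63 and -1.70 to -1.53, and 5 to 8 genes of the whole table were then called. Scaling by library size alone gave adjusted p = 0.141 for Sec24d and 0.142 for Mia3. Without M624 and M664 both edgeR calls held (Sec24d -1.57, adjusted p = 0.0329, and Mia3 -1.36, adjusted p = 0.0397). They also held without the 4 libraries with satellite reads (Sec24d -1.92, adjusted p = 0.0132, and Mia3 -2.16, adjusted p = 0.00886). In each of these fits all Myc-knockin libraries left were of the other set. DESeq2 called 5 of the 9 genes (these 2 with Creb3l2, Sec31a and Sar1a) and limma-voom with quality weights 6 (Kdelr3 in addition). Over all 15365 tested genes DESeq2 called 1112 lower and limma-voom 1000, where edgeR called 461.

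On the way back to the ER, Kdelr3 (chr15:79516411-79527739), a receptor that returns escaped ER chaperones, had the lowest count of any member in any tumor, 55 reads in M351. It measured 86.1, 141, 89.3 and 176 CPM in the p53-driven tumors and 33.9, 18.3, 70.9, 37.5 and 99.1 CPM in the Myc-knockin tumors. M664 lay above F187 and F331, and the other Myc-knockin tumors lay below all p53-driven ones. The log2 fold change was -1.25 (SE 0.46, 95% interval -2.25 to -0.24, edgeR adjusted p = 0.116).

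Levels of different genes were compared per kilobase of exon, as TPM, the depth-scaled count per kilobase. In p53-driven tumors Creb3l1 had the highest mean level, 778 ± 249 TPM (SD, n = 4), followed by Kdelr3 (384 ± 136), Mia3 (357 ± 57.4), Sar1a (303 ± 36.9), Sec31a (253 ± 45.2) and Sec24d (204 ± 12.6). Sec23a (131 ± 33.2), Xbp1 (121 ± 13.1) and Creb3l2 (63.4 ± 5.30) came last. The ranges of neighbours in this order overlapped, except between Sec24d and Sec23a and between Xbp1 and Creb3l2. In Myc-knockin tumors Creb3l1 again had the highest mean, 290 ± 175 TPM (SD, n = 5), then Sar1a (157 ± 47.5), Kdelr3 (153 ± 82.4), Sec31a (124 ± 16.8), Mia3 (115 ± 43.7), Sec23a (89.4 ± 21.6), Xbp1 (82.0 ± 25.3), Sec24d (61.8 ± 17.5) and Creb3l2 (34.1 ± 13.8), and the ranges of all neighbours overlapped. Sec24d, above Sec23a and Xbp1 in every p53-driven tumor, thus had a lower mean than both in the Myc-knockin group.

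The share of each member in the counts per kilobase of its own paralog family does not depend on library size or its normalization. Sec24d made up 53.8%, 50.7%, 57.6% and 57.7% of the 4 Sec24 genes in the p53-driven tumors. In the Myc-knockin tumors, in the same order, it made up 38.9%, 28.8%, 38.4%, 22.7% and 37.8%. The groups were separate, with a difference of -21.6 percentage points between means of 33.3 ± 7.27% and 55.0 ± 3.36% (exact two-sided permutation p = 0.0159, 0.0556 after Benjamini-Hochberg adjustment over the 7 families). Of the other Sec24 genes, Sec24a had a log2 fold change of -1.20 (edgeR adjusted p = 0.0622), Sec24b of -0.34 (0.391) and Sec24c of -0.10 (0.853). The sign of Sec24c turned under 3 other settings, to at most 0.17, and without M408.

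For Mia3 the family holds Mia2, whose products include TALI, a TANGO1-like receptor. Mia3 made up 92.0%, 92.7%, 88.8% and 89.3% of the pair in the p53-driven tumors and 71.7%, 69.7%, 88.7%, 74.1% and 69.9% in the Myc-knockin tumors. M9 lay just below the p53-driven range and the other 4 Myc-knockin tumors well below it. The difference was -15.9 points (exact permutation p = 0.0159, adjusted 0.0556), while Mia2 itself measured 94.1 ± 32.2 CPM in Myc-knockin and 92.5 ± 18.6 CPM in p53-driven tumors (log2 fold change 0.03, 95% interval -0.65 to 0.70, edgeR adjusted p = 0.971). The sign of Mia2 turned when scaled by library size alone (-0.06), among others.

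The other 5 shares had exact permutation p-values from 0.0635 to 0.587. Sar1a made up 63.3 ± 10.05% of the Sar1 pair in Myc-knockin and 76.8 ± 9.75% in p53-driven tumors (exact p = 0.0794, adjusted 0.139), and Sar1b had a log2 fold change of -0.01 (edgeR adjusted p = 0.992), with a sign that turned under 5 other settings. Sec31a held 97.1 ± 2.23% against 99.6 ± 0.160% (exact p = 0.0635, adjusted 0.139) beside Sec31b, which had 2 to 66 reads per tumor. Sec23a held 79.6 ± 3.64% against 76.4 ± 3.32% (exact p = 0.222), and its paralog Sec23b had a log2 fold change of -0.80 with separate groups (edgeR adjusted p = 0.0682). Creb3l1 held 84.2 ± 13.1% against 91.7 ± 3.46% of the counts it shares with Creb3l2 (exact p = 0.460), with M408 and M624 at 70.6% and 69.3% and the other 3 Myc-knockin tumors at 92.7% to 94.8%. Kdelr3 held 23.7 ± 6.10% against 21.6 ± 3.08% of the KDEL receptors (exact p = 0.587). Kdelr2, the most abundant of these receptors, fell from 502 ± 186 to 143 ± 57.6 CPM (log2 fold change -1.81, SE 0.38, edgeR adjusted p = 0.0295), a call that was lost without M624 and M664, by library size alone and without F325, F331, F368, M351 or M624. Kdelr1 had a log2 fold change of -0.45 (adjusted p = 0.483), which was 0.26 without the 4 libraries with satellite reads.

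**Figure D2:**
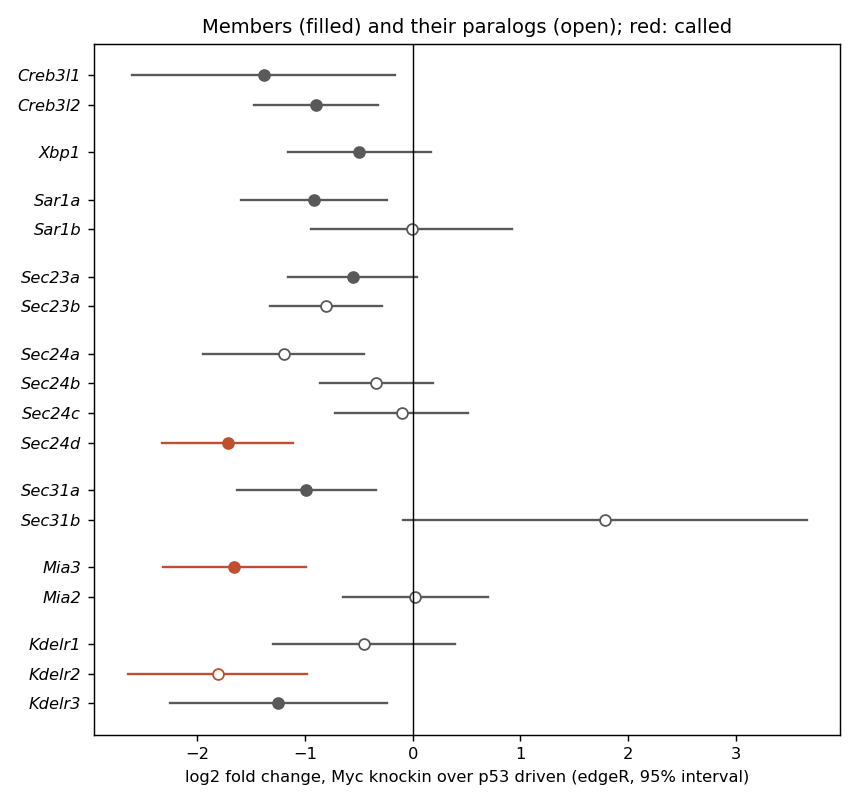
Log2 fold change of Myc-knockin over p53-driven tumors (x axis, edgeR, with 95% intervals) for the 9 members (filled) and their paralogs (open), grouped by family, with called genes in red. Sec24d, Mia3 and Kdelr2 are called, and the intervals of Sec23a, Xbp1, Mia2, Sar1b, Sec24b, Sec24c, Sec31b and Kdelr1 include 0.

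**Figure D3:**
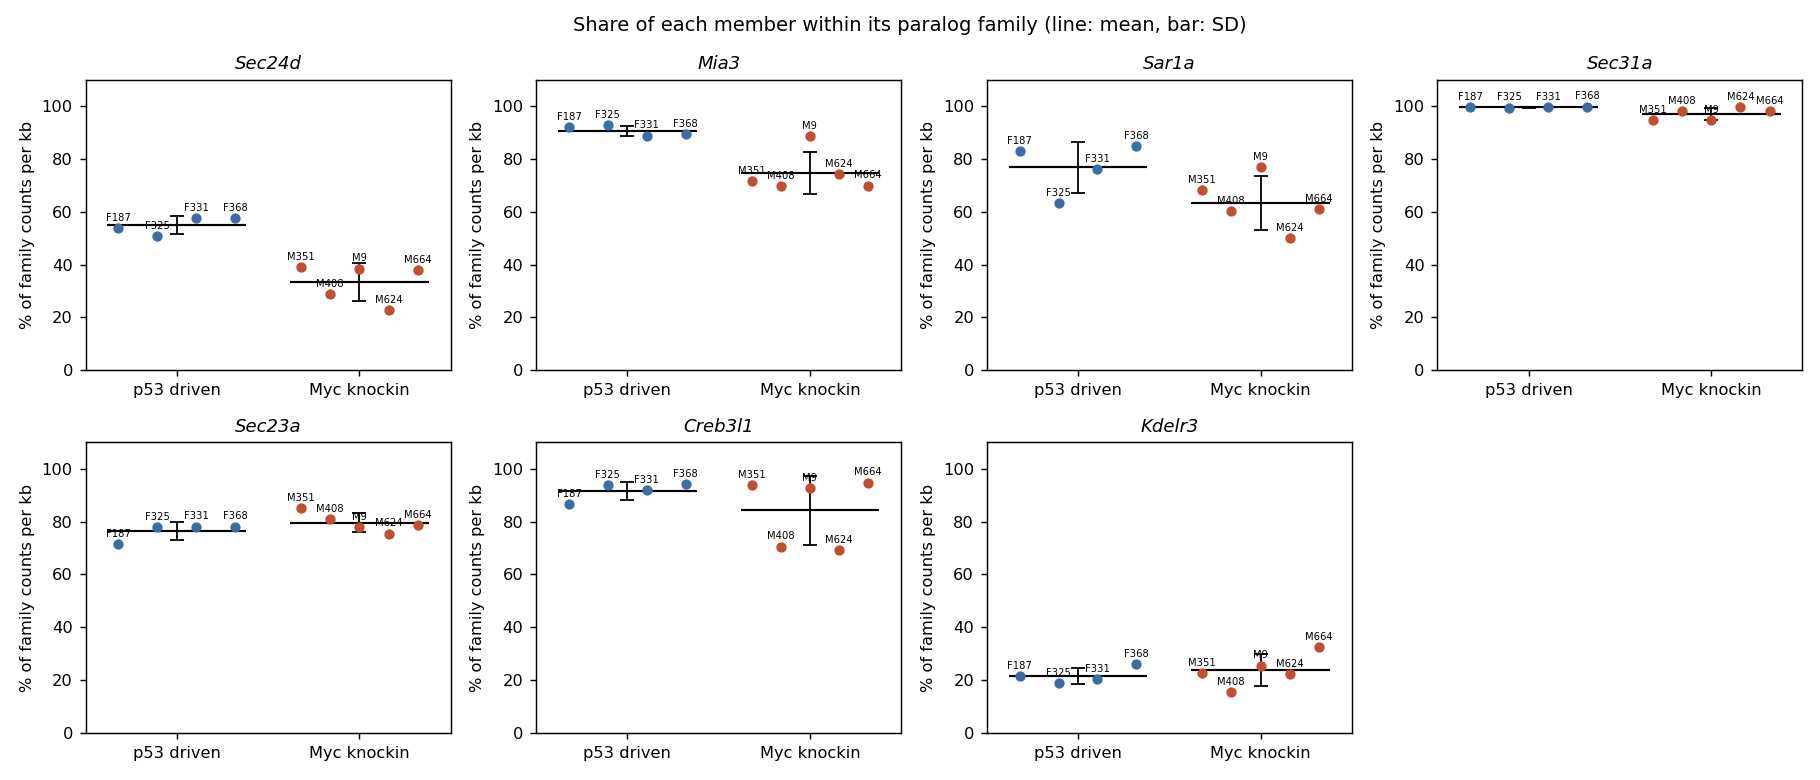
Share of each member in its paralog family (y axis, % of the family's counts per kilobase of exon) in each tumor, with the mean as a line and the SD as a bar. The groups are separate for Sec24d (22.7% to 38.9% in Myc-knockin, 50.7% to 57.7% in p53-driven tumors) and adjoin for Mia3, where M9 is at 88.7%.

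Beyond the members, 104 of 106 listed genes of the secretory route were tested. Of these, 16 were called lower and 0 higher in Myc-knockin tumors by edgeR (47 and 1 at an unadjusted p below 0.05), 79 had negative log2 fold changes, and the median was -0.62, beside 0.14 over all genes. In the COPII list, 3 of 17 genes fell. Besides Sec24d these were Sec16a, the scaffold of ER exit sites (log2 fold change -1.25, edgeR adjusted p = 0.0320), and Tfg, which organizes the same sites (-0.93, adjusted p = 0.0483), with a list median of -0.56. Of 19 other fits, 9 lost the call of Sec16a and 14 that of Tfg, among them those without M624 and M664 and those without F187, M351 or M624. Of 16 cargo receptors at ER exit, 2 fell, Mia3 and Mcfd2, the partner of the lectin receptor Lman1 (-1.58, adjusted p = 0.0309, lost in 8 of the 19 fits), with a median of -0.33. In the list of the COPI coat and KDEL receptors, which serve the return route, 2 of 14 fell, Kdelr2 and the coat subunit Copg2 (-0.99, adjusted p = 0.0413, lost in 11), with a median of -0.79.

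Sec13, the outer-cage partner of Sec31, differed between the 2 sets of Myc-knockin libraries. It measured 162, 156, 125.6 and 216 CPM in the p53-driven tumors. In the Myc-knockin group it was 84.9 CPM in M351, 51.6 in M408 and 104 in M9, and 883 in M624 and 801 in M664. The tumors with little Rn7sk were thus above every p53-driven tumor and the other 3 below every one. Of all tested pathway genes, Cope, Atf6b, Syvn1 and Srprb split in the same way. The log2 fold change was 1.23 (SE 0.81, 95% interval -0.54 to 3.00, edgeR adjusted p = 0.355), and limma-voom with quality weights turned it to -0.74 (adjusted p = 0.261). With M624 and M664 left out it was -0.999 (adjusted p = 0.0912). With the 4 satellite-rich libraries left out it was 2.37, and Sec13 was then called higher (adjusted p = 0.00886). The part of the library in the Sec13 level was not tested.

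Of 9 tested genes, for CREB3-family and ATF6 factors, the proteases that cut them and Scap, 1 was called. Creb3l3, best known from liver and gut, had 4 to 15 reads in 4 of the 5 Myc-knockin tumors. Background judged from chemosensory genes was 3.4 of 4 reads in M351 and 3.7 of 7 in M9. It was at most 0.5 reads in M408, M624 and M664, and 2.1 of 15 in the p53-driven tumor F187. Creb3l3 fell from 20.0 ± 11.8 to 3.01 ± 2.34 CPM (log2 fold change -2.82, edgeR adjusted p = 0.0453). This call was lost in 12 of the 18 other fits that kept the gene, among them those with satellite genes removed, by library size alone, by limma-voom, without M624 and M664, and without F325, F331, F368, M351, M408 or M624 in turn. The list median was -0.74, and Mbtps1 and Mbtps2, the proteases that release these factors, had log2 fold changes of 0.16 and -0.02 (adjusted p = 0.817 and 0.978). Scap was higher in Myc-knockin tumors without passing the test (log2 fold change 1.47, edgeR unadjusted p = 0.00661, adjusted p = 0.0707). Of 20 unfolded protein response genes 5 fell and 0 rose, with a median of -0.52. Among them were Eif2ak3, the ER stress kinase PERK (-1.72, adjusted p = 0.0188), Edem1, which directs misfolded glycoproteins to degradation (-1.51, adjusted p = 0.0260), and the chaperone genes Dnajc3 (-1.50, adjusted p = 0.0321) and Pdia4 (-1.42, adjusted p = 0.0289). Their calls were lost in 4, 5, 9 and 9 of the 19 other fits, in that order. None of 21 translocon and signal recognition genes was called by edgeR (7 were lower and 0 higher at an unadjusted p below 0.05, median -0.36). Of these 21, limma-voom called 6 and DESeq2 3 lower, beside 1000 and 1112 of all 15365 tested genes.

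Among the cargo genes the values were as follows. Of 17 procollagen and collagen-processing genes 5 fell and 0 rose, 16 were negative and the median was -1.47. Col11a1 (-3.09, edgeR adjusted p = 0.0160), Col12a1 (-2.28, adjusted p = 0.0175), Col5a1 (-2.24, adjusted p = 0.0265) and the prolyl hydroxylase gene P4ha1 (-1.73, adjusted p = 0.0320) were among those called, and the calls were lost in 3, 4, 5 and 8 of the 19 other fits, in that order. The summed level of all 17 listed genes was 6885 to 41767 CPM in Myc-knockin and 69748 to 147750 CPM in p53-driven tumors, with no overlap. Most of that sum came from Col1a1 and Col1a2 (means of 8492 and 6226 against 67771 and 45533 CPM), neither of which was called (log2 fold changes -3.00 and -2.87, edgeR adjusted p = 0.0682 and 0.0817). Without F325, F331 or F368 none of the 16 other pathway genes and no procollagen gene was called. Without the 4 libraries with satellite reads 5 other pathway genes were called higher, where 2594 of all 16495 tested genes were.

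**Figure D4:**
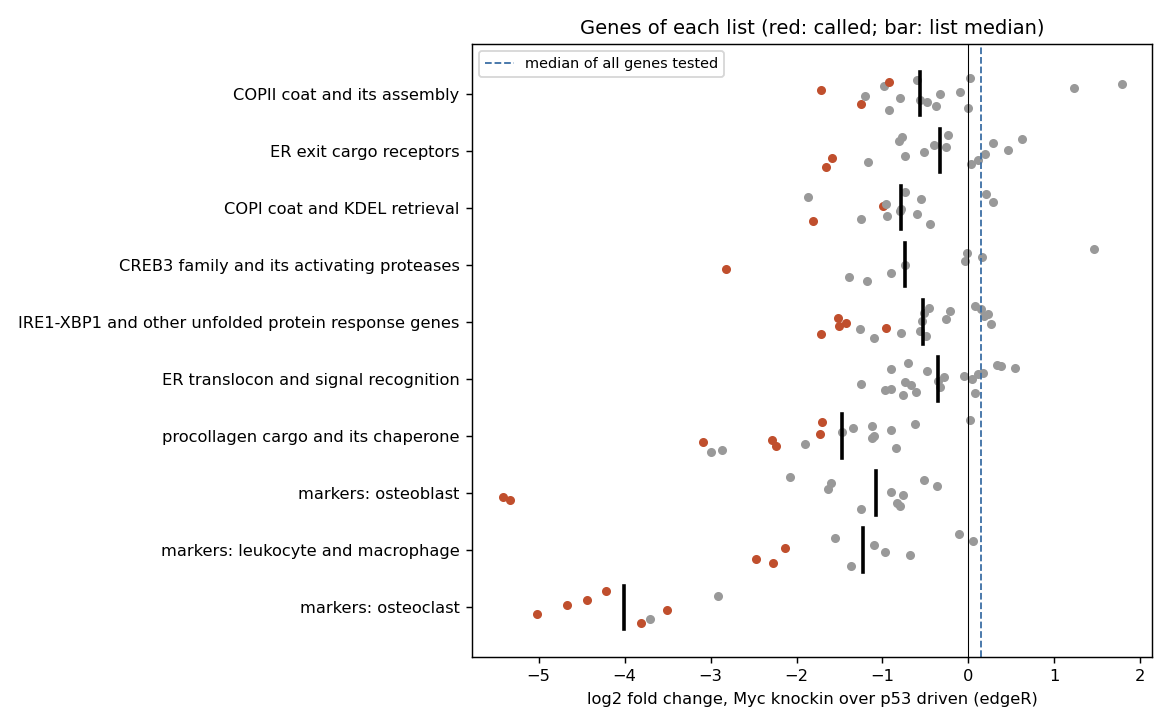
Log2 fold change of Myc-knockin over p53-driven tumors (x axis, edgeR) for the tested genes of each pathway list and of 3 marker lists (rows), with called genes in red, list medians as black bars and the median of all tested genes, 0.14, as a dashed line. All 7 pathway lists have medians below that line, from -1.47 for procollagen cargo to -0.33 for cargo receptors.

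Summed markers of several cell types were also lower in Myc-knockin tumors. The 12 osteoblast markers all had negative log2 fold changes with a median of -1.08, 2 of them (Bglap and Bglap2, the osteocalcin genes) fell, and their summed level was 1394 to 11283 CPM in Myc-knockin and 12232 to 23384 CPM in p53-driven tumors. The summed level of 8 osteoclast markers was 124 to 2570 against 2716 to 14151 CPM (6 fell). For 10 leukocyte and macrophage markers it was 159 to 540 against 795 to 1564 CPM (3 fell, 1 had a positive log2 fold change). For 7 fibroblast markers it was 271 to 488 against 945 to 2100 CPM (2 fell). Of these 7 fibroblast markers, 2 had positive log2 fold changes, 1 of them at an unadjusted p below 0.05 by edgeR. The ranges of the plasma cell, endothelial, skeletal muscle and cartilage lists overlapped, with 0 genes called by edgeR in each. Of their genes, 3 had an unadjusted p below 0.05 by edgeR, where 26.8% of all tested genes did. DESeq2 called 1 cartilage gene higher, where 1534 of all 15365 tested genes were. Of the 8 plasma cell markers, 3 passed the filter. For the plasma cell, a secretory cell that depends on Xbp1, the summed levels were 122 to 204 against 139 to 215 CPM. Sdc1, which other cells also express, supplied 57.5% to 94.2% of that sum. No listed marker was at 0 in all tumors. The part of these cell types in the lower levels of the secretory genes was not tested.

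Within the Myc-knockin group Creb3l1 was ordered as the osteoblast markers were. M664 had 331.1 CPM of Creb3l1 beside a summed marker level of 11283 CPM. M351 had 238 beside 8634, M9 207 beside 5710, M408 73.6 beside 5223, and M624 43.9 beside 1394 CPM. Procollagen gave nearly the same order (41767 CPM in M664, 16002 in M351, 20818 in M9, 8443 in M408 and 6885 in M624). In the p53-driven group F187 had the lowest value of all 3 measures. Creb3l1 was 537, 513 and 585 CPM in F325, F331 and F368. The osteoblast marker sums there had the reverse order (22841, 23384 and 17486.5 CPM). The procollagen sums had the order of Creb3l1 (146217, 139894 and 147748 CPM). These 9 tumors fall into their genotypes, so no pooled correlation is given.

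**Figure D5:**
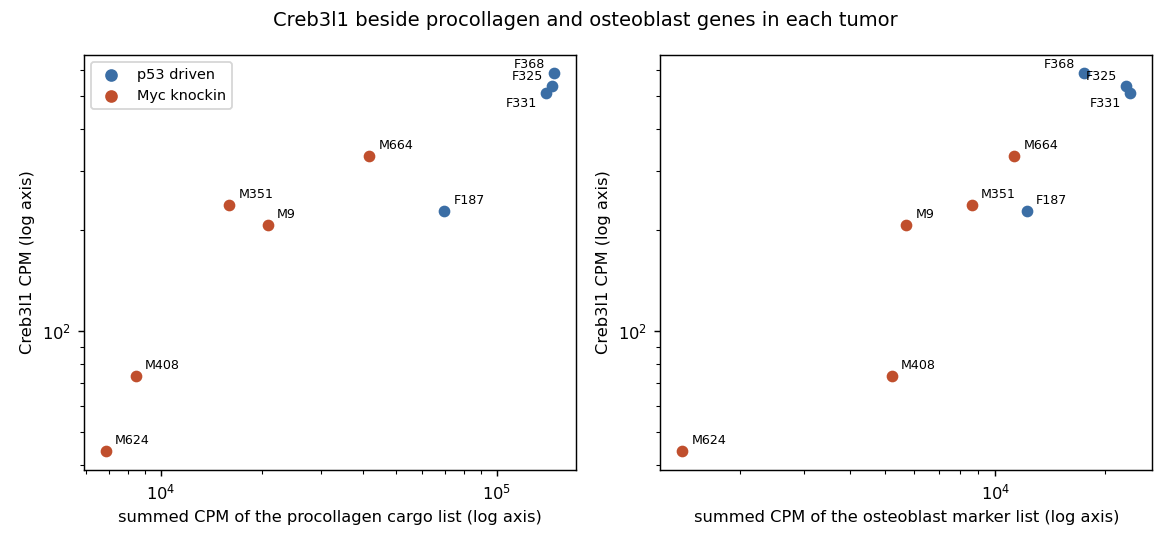
Creb3l1 CPM (y axis, log scale) against the summed CPM of the procollagen list (left) and of the osteoblast markers (right), both on log scales, in p53-driven (blue) and Myc-knockin (red) tumors. M624 is lowest and M664 highest among the Myc-knockin tumors on all axes.

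The tested genes whose pattern over the 9 tumors was most like that of Creb3l1, by root mean square distance between centred log2 CPM, were Fam102a (0.289), Iqsec2 (0.295), Hpse (0.312), Cnn2 (0.354) and Alpl (0.367), the last encoding the alkaline phosphatase of mineralizing osteoblasts. None of these 5 was called by edgeR (adjusted p from 0.0847 to 0.449). The nearest member was Sec24d at 0.667, which ranked 175 among tested genes, and Creb3l2 at 1.11 ranked 2884.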

How the data were processed

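mRNA of whole tumors was sequenced as paired-end reads, and the authors used Trim Galore for trimming, STAR with mm10 for mapping and featureCounts for counting. The deposited table holds raw read counts per gene, 1 column per tumor. Columns carry no replicate numbers and were assigned to a genotype by name, F for p53-driven and M for Myc-knockin. The authors' supporting data list F187, F325, F331, F368, M408 and M624 as names of cell lines of these genotypes. M351, M9 and M664 were assigned by the letter M alone. Annotation release, strand setting and handling of multi-mapping reads are not given in the sources used here. Members and lists were chosen with earlier results of these data known. Counts were filtered with filterByExpr (minimum 10), scaled by TMM and fitted with edgeR 4.0.16 (R 4.3.3) over all 9 tumors, with Benjamini-Hochberg adjustment and called at adjusted p below 0.05 and fold above 1.5. DESeq2 1.42.0 and limma 3.58.1 were alternatives. CPM used TMM sizes. Exon lengths and coordinates came from GENCODE (GRCm38), and 3 counts equal 0.114 to 2.39 CPM. The fit was tested on simulated data. Named were all members, their paralogs, up to 4 called genes per pathway list and direction, the 5 genes most like Creb3l1, and Myc. Genes named beyond these (Sec13, Scap, Cope, Atf6b, Srprb, Col1a1, Col1a2, Spcs2, Syvn1, Hspa5, Hsp90b1, Pdia6, Mbtps1, Mbtps2 and markers) were chosen after their values were seen.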

Additional observations from a re-analysis of the deposited data

Results flagged for a closer look

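The values below stood far from the rest of their group by Dixon's test at the 95% level, which flags about 1 in 20 groups by chance. Creb3l2 in the Myc-knockin tumor M408 was 85.9 CPM, with the other 4 tumors of that group between 44.3 and 54.3 CPM. The share of Sec23a in the Sec23 pair in the p53-driven tumor F187 was 71.4%, with the other 3 between 77.8% and 78.1%. Mia3 made up 88.7% of its pair with Mia2 in the Myc-knockin tumor M9, against 69.7% to 74.1% in the other 4. F187, M408 and M9 are among the 4 libraries with satellite reads, and the part of this in the values was not tested.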

How the results depend on the processing

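No paired analysis was possible because the columns of the count table carry no replicate numbers. Under 19 other fits the log2 fold changes of all 9 genes stayed negative (171 of 171 values), and Sec24d and Mia3 were each called in 15. The number of members called lower (2) was 0 by library size alone, 5 by DESeq2, 6 by limma-voom and 0 to 3 when 1 tumor was left out. For the other pathway genes (16 lower, 0 higher) the lower count was 1 by library size alone, 7 with all genes of at least 1 count, 37 by DESeq2, 41 by limma-voom and 0 to 18 when 1 tumor was left out. Over all 15365 tested genes the lower calls numbered 461 in the main fit, 86 by library size alone, 1112 by DESeq2 and 1000 by limma-voom. With all genes of at least 1 count they numbered 276 of 47719. The higher count of the other pathway genes was 1 (Scap) under upper-quartile normalization and by DESeq2. It was also 1 (Scap) under a stricter filter, with every tumor at 10 counts or more. Without the 4 libraries with satellite reads it was 5 (Scap, Sec13, Cope, Spcs2 and Syvn1), where 2594 of 16495 tested genes were called higher. Leaving out 1 tumor gave 0 to 1 (Scap without M9). Several paralogs near 0 changed sign. Sec24c was 0.0055 under the stricter filter, 0.17 without the 4 libraries with satellite reads, 0.0021 with background subtracted, and -0.20 to 0.063 leaving out 1 tumor. Sar1b was 0.059 with upper-quartile scaling, 0.016 by library size, 0.095 under the stricter filter, 0.14 without the 4 libraries, 0.072 with background subtracted, and -0.23 to 0.42 leaving out 1 tumor. Kdelr1 was 0.26 without the 4 libraries. Mia2 was -0.059 by library size, -0.080 with all genes of at least 1 count, -0.28 without the 4 libraries, and -0.12 to 0.17 leaving out 1 tumor. For the family shares, the Sec23a difference (3.25 points) was -0.897 without the 4 libraries, where no p below 0.05 is possible (smallest 0.2). That of Sec31a (-2.51) was -0.724 without the 4 libraries, -1.51 with background subtracted (exact p = 0.0476) and -3.15 to -1.91 leaving out 1 tumor. That of Kdelr3 (2.05) was -0.421 without M624 and M664 and -0.144 to 4.07 leaving out 1 tumor. The cause was not tested.

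The median log2 fold change over all genes moved by -0.12 by library size alone, -0.18 by limma-voom, -0.15 without the 4 libraries and 0.82 with all genes of at least 1 count. Over all genes the calls, 809 here, numbered 136 by library size alone, 2646 by DESeq2, 1663 by limma-voom and 4595 without the 4 libraries, and the lower share of calls was 40.3% under the stricter filter, 42.0% by DESeq2, 45.4% with background subtracted and 43.5% without the 4 libraries. Depth limited Creb3l2, Kdelr3 and Xbp1 most, with 55 to 64 reads in their thinnest library.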
